A study of Drosophila melanogaster with 16 samples.

Results

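The EGF receptor pathway was followed through 6 of its 9 chosen genes: the receptor Egfr, the ligand spi, and the induced inhibitors aos, sty, Mkp3 and kek1. Members were taken as every probe set whose only annotated gene symbol is that of a chosen gene, which gave 8 probe sets, among 11982 genes with 13647 such probe sets in the whole table. The ligand vn, the protease rho and the transcription factor pnt have no probe set under their symbol in the annotation used and are not analysed here. Total RNA from dissected Drosophila tissue was measured on 16 single-colour Affymetrix arrays, with values deposited as log2 signal. The mutant groups were lgl wing discs, scrib wing discs, lgl brain complexes and scrib brain complexes, with 3 arrays each, from third-instar larvae at day 9 after egg deposition. The lgl larvae carried lgl27S3 over lglE2S31, which the series describes as null, and the scrib larvae carried scrib1 over scrib2. The wild-type groups were discs and brain complexes of third-instar larvae at day 5, with 2 arrays each, and the labels name no wild-type strain. The labels call the mutant samples tumours and the wild-type samples free of them. Genotype, any difference in genetic background, age and tumour state thus changed together in each mutant comparison and cannot be told apart.

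Egfr is a receptor tyrosine kinase at the cell surface. The ligand spi is made as a membrane-bound precursor, which Star carries out of the endoplasmic reticulum and rho cleaves, and the bound receptor then acts through Ras and the MAP kinase to the nucleus, where pnt turns target genes on. Among those targets are the pathway's own brakes: aos is secreted and binds the ligand, kek1 is a transmembrane protein that binds the receptor, sty (sprouty) acts inside the cell on Ras signalling, and Mkp3 is a phosphatase that inactivates the MAP kinase. In the wing disc the pathway is known for vein and notum patterning and for growth, and in the larval brain for the optic lobe and for glia.

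On each array 40.2% to 43.2% of non-control probe sets reached a log2 signal of 4, and all 8 member probe sets passed a filter of 4 on at least 2 arrays. Limma fitted 8819 probe sets in a single model, and a probe set was called where its Benjamini-Hochberg adjusted p within the comparison was below 0.05. Fold changes come from differences of mean log2 signal and are written as "at least" where an array of the dimmer group read below 4 and was set to 4. RNA of l(2)gl read 2.42 to 5.47 in lgl discs and 10.51 to 10.72 in wild-type discs. In lgl brains it read 2.21 to 2.82, against 8.93 to 9.89 in wild-type brains. The scrib probe set was not lower in scrib tissue beyond its spread (9.89 to 10.34 in scrib discs, 9.76 to 10.75 in wild-type discs). Wing disc markers marked the discs: 17 of 18 tested were higher in wild-type discs than in wild-type brains, and all 12 tested neuronal markers were lower. The pooled spread within a group was larger in wild type (SD 0.65 in discs, 0.66 in brains) than in mutants (SD 0.33 to 0.45). The model takes a single spread per probe set from all groups together. SEs and p-values against wild type therefore do not carry the larger wild-type spread and may be too small. Those between mutant groups carry part of it and may be too large. Array weights by group are the alternative that lets the groups differ in spread. The labels do not say whether arrays of a group came from separate larvae, so the p-values cover only the spread between these samples. In bulk tissue, fewer cells of a type and less RNA per cell cannot be told apart.

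In lgl discs only spi was called against wild-type discs, 1 of 8 probe sets, where 18.1% of all tested probe sets were called. In scrib discs 3 of 8 were called, with spi and aos higher and kek1 lower, against 23.2% of all probe sets. In lgl brains 3 of 8 were called against wild-type brains, both Mkp3 probe sets and a sty probe set, all lower, against 25.3%. In scrib brains 4 of 8 were called, with Egfr higher and the same Mkp3 and sty probe sets lower, against 34.8%. These shares are on few probe sets, and sty and Mkp3 give 2 probe sets each. Of the genes called, Egfr, spi, aos and sty stayed under a 2-fold difference from wild type. The median log2 change over the 8 probe sets was 0.01 in lgl discs and 0.30 in scrib discs, against 0.01 and 0.00 over all tested probe sets. In brains it was -0.28 for lgl and -0.52 for scrib, against 0.04 and 0.07 over all tested probe sets. The lgl and scrib comparisons of a tissue share their wild-type arrays.

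**Figure D1:**
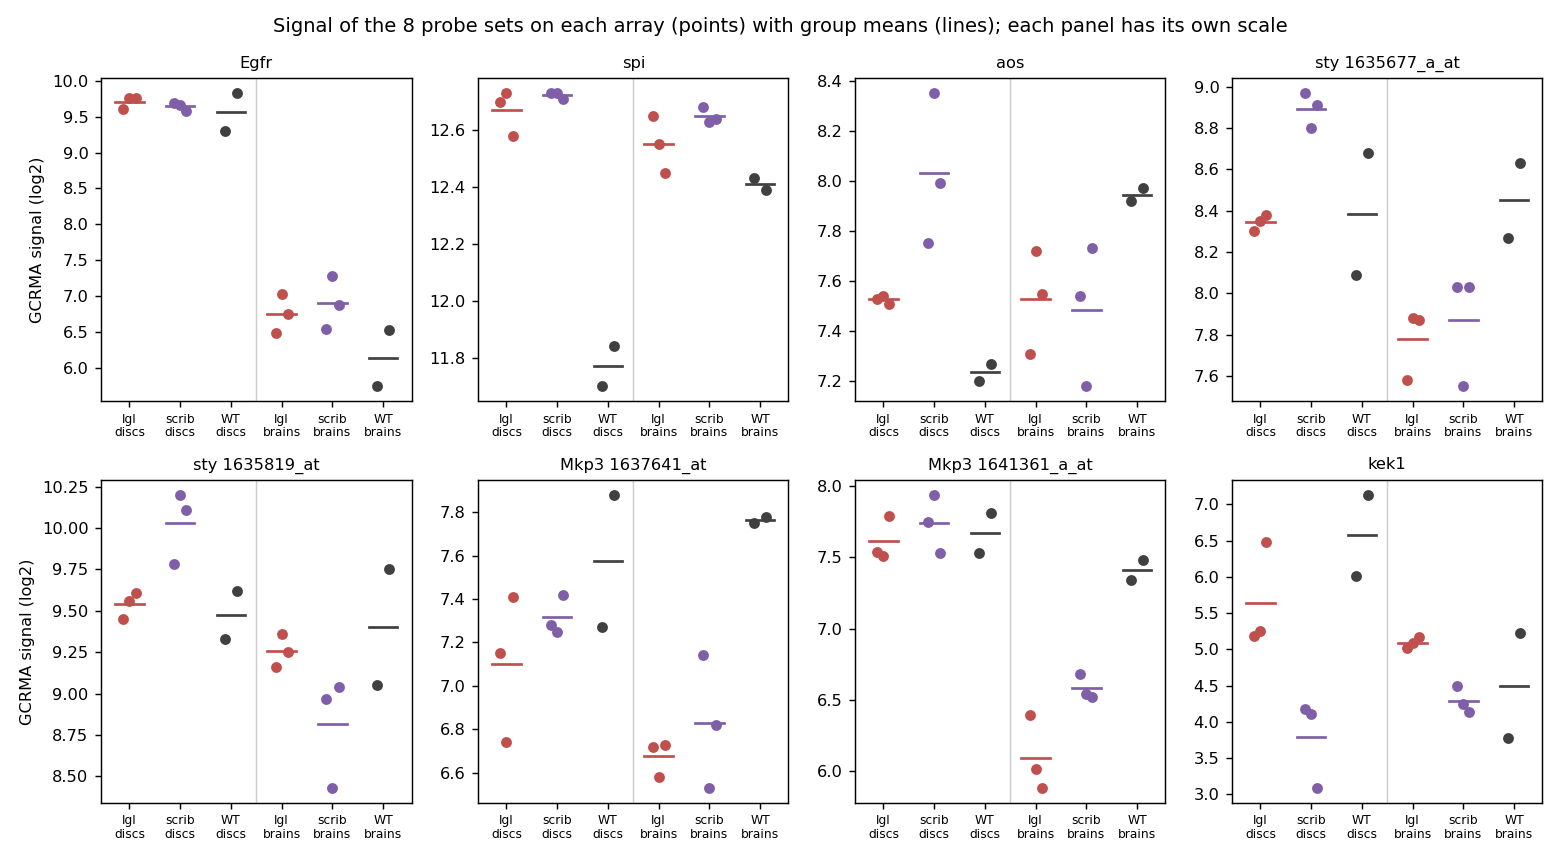
Log2 signal of each of the 8 member probe sets (vertical axis, a separate scale in each panel) on every array, by group (horizontal axis: lgl, scrib and wild-type discs, then lgl, scrib and wild-type brains). Points are arrays and lines are group means. Egfr separates discs from brains, the 2 wild-type disc arrays are the lowest of all 16 for spi, and both Mkp3 probe sets are highest among brains in wild type.

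The receptor's signal was higher in discs than in brains in every genotype. Egfr, on chromosome arm 2R, read 9.61, 9.76 and 9.76 in lgl discs, against 6.48, 7.03 and 6.75 in lgl brains. It read 9.69, 9.67 and 9.58 in scrib discs, against 6.54, 7.28 and 6.88 in scrib brains. In wild type it read 9.30 and 9.83 in discs, against 5.74 and 6.52 in brains. Every disc array lay above every brain array. The difference of discs over brains was 7.77-fold in lgl (log2 2.96 ± 0.24 SE, adjusted p = 7.2e-07), 6.71-fold in scrib (2.75 ± 0.24 SE, 6.4e-07) and 10.8-fold in wild type (3.44 ± 0.29 SE, 5.9e-07). These calls held in all 26 alternatives run. Tissue differences were common on these arrays: 44.7% of tested probe sets were called between lgl discs and brains, 46.2% in scrib and 42.8% in wild type.

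Within discs no Egfr difference between genotypes passed. Its mean was 9.71 ± 0.08 in lgl discs, 9.65 ± 0.06 in scrib discs (SD, n = 3 each) and 9.57 ± 0.37 in wild-type discs (SD, n = 2), and the 3 ranges overlapped. The change was 0.14 in lgl discs (95% interval -0.43 to 0.71, adjusted p = 0.78) and 0.08 in scrib discs (-0.49 to 0.65, 0.89), intervals that leave out a doubling. In brains Egfr rose 1.71-fold in scrib against wild type (log2 0.77 ± 0.26 SE, adjusted p = 0.038), where the lowest scrib brain array (6.54) stood just above the highest wild-type one (6.52). The scrib call rests on few arrays: it was lost without wild-type brain replicate 1 (log2 0.38, adjusted p = 0.35), scrib brain replicate 2 (0.58, 0.12), scrib brain replicate 3 (0.78, 0.071) or scrib disc replicate 1 (0.77, 0.050). It was also lost with no filter (0.090), with only the arrays compared (0.21) and with array weights by group (0.28). In lgl brains Egfr did not pass (log2 0.62 ± 0.26 SE, adjusted p = 0.099), and it passed without wild-type brain replicate 2 (1.02, 0.014).

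The ligand spi rose in the discs of both mutants. Spi, on arm 2L, read 12.70, 12.73 and 12.58 in lgl discs, 12.73, 12.73 and 12.71 in scrib discs, and 11.70 and 11.84 in wild-type discs. The wild-type disc arrays were the only ones of the 16 below 12 on the log2 scale, and they did not overlap with any other group. Spi rose 1.86-fold in lgl discs (log2 0.90 ± 0.12 SE, adjusted p = 1.7e-04) and 1.93-fold in scrib discs (0.95 ± 0.12 SE, 1.1e-04). No array left out ended either call, and over the 26 alternatives the log2 change stayed between 0.83 and 0.97 in lgl discs and between 0.88 and 1.02 in scrib discs. In brains spi read 12.65, 12.55 and 12.45 in lgl, 12.68, 12.63 and 12.64 in scrib, and 12.43 and 12.39 in wild type. All 8 brain arrays lay between 12.39 and 12.68 and neither change passed (lgl 0.14, adjusted p = 0.40; scrib 0.24, adjusted p = 0.13). The 3 lgl and 3 scrib brain arrays all lay above both wild-type ones, and the scrib change passed with no filter (0.24, 0.024). In wild type spi was lower in discs than in brains (log2 -0.64 ± 0.13 SE, 1.56-fold, adjusted p = 0.0012), and the discs-over-brains difference did not pass in lgl (0.12, adjusted p = 0.37) or scrib (0.07, 0.60). The wild-type tissue call was lost with only those 4 arrays (0.23) and with array weights by group (0.086). The suffix of the spi probe set marks a design whose probes can match transcripts of more than 1 gene, and the annotation pairs it with spi alone.

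The secreted inhibitor aos rose in scrib discs. Aos, on arm 3L, read 7.75, 8.35 and 7.99 in scrib discs and 7.20 and 7.27 in wild-type discs, with 7.53, 7.54 and 7.51 in lgl discs. All scrib arrays lay above the lgl arrays, and all lgl arrays lay above the wild-type pair. It rose 1.73-fold in scrib discs (log2 0.79 ± 0.20 SE, adjusted p = 0.012). The lgl value was 0.29 ± 0.20 SE (adjusted p = 0.35). In brains the order was the other way round: 7.31, 7.72 and 7.55 in lgl, 7.54, 7.18 and 7.73 in scrib, and 7.92 and 7.97 in wild type. Both wild-type brain arrays were above all 6 mutant brain arrays, but neither change passed (lgl -0.42, adjusted p = 0.13; scrib -0.46, adjusted p = 0.083). With quantile normalization added the scrib change passed (-0.61, 0.034). Aos was 1.64-fold lower in wild-type discs than wild-type brains (log2 -0.71 ± 0.21 SE, adjusted p = 0.017) and 1.46-fold higher in scrib discs than scrib brains (0.55 ± 0.17 SE, 0.021). The scrib disc call was lost without wild-type disc replicate 1 (log2 0.76, adjusted p = 0.054), with only the arrays compared (0.089) and with array weights by group (0.12). The wild-type tissue call was lost without wild-type disc replicate 1 (-0.67, 0.064), with both replicate 1 wild-type arrays left out (0.099), with only the arrays compared (0.18) and with array weights (0.34). The scrib tissue call was lost without scrib disc replicate 2 (0.39, 0.10) or scrib brain replicate 2 (0.40, 0.095), and with only the arrays compared (0.073).

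Sprouty, on arm 3L, has 2 probe sets. The brighter, 1635819_at, read 9.45, 9.56 and 9.61 in lgl discs, 9.78, 10.20 and 10.11 in scrib discs, and 9.33 and 9.62 in wild-type discs. The dimmer, 1635677_a_at, read 8.30, 8.35 and 8.38 in lgl discs, 8.97, 8.80 and 8.91 in scrib discs, and 8.09 and 8.68 in wild-type discs. On both, scrib discs were the highest of the 6 groups and did not overlap with the next group. Neither passed against wild-type discs (scrib 0.56, adjusted p = 0.10 for the brighter and 0.51, 0.089 for the dimmer). The dimmer passed without wild-type disc replicate 2 (0.81, 0.026) and the brighter without either wild-type brain array (0.56, 0.047 each). In brains the dimmer probe set fell 1.60-fold in lgl (log2 -0.67 ± 0.20 SE, adjusted p = 0.030) and 1.49-fold in scrib (-0.58 ± 0.20 SE, 0.043). The brighter gave -0.14 in lgl (adjusted p = 0.70) and -0.59 in scrib (adjusted p = 0.064). The probe sets thus gave different calls, at unlike changes in lgl and at like changes in scrib. In scrib the mean of both passed (-0.58, 0.042), as did the brighter with quantile normalization added (-0.70, 0.034). In scrib brains the brighter passed without wild-type brain replicate 1 (-0.93, 0.015). On the dimmer one, brains read 7.58, 7.88 and 7.87 in lgl, 8.03, 7.55 and 8.03 in scrib, and 8.27 and 8.63 in wild type. Between mutant tissues sty was higher in discs: in scrib 2.03-fold on the dimmer (log2 1.02 ± 0.18 SE, adjusted p = 4.4e-04) and 2.33-fold on the brighter probe set (1.22 ± 0.21 SE, 2.8e-04), calls that held in all alternatives. In lgl the dimmer gave 1.48-fold (0.56 ± 0.18 SE, 0.023) and the brighter did not pass (0.28, 0.30). In wild type the discs-over-brains difference was -0.07 on the dimmer (adjusted p = 0.84) and 0.07 on the brighter (0.86).

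The sty calls in brains rested on few arrays. The lgl call was lost without lgl brain replicate 1 (log2 -0.57, adjusted p = 0.099), lgl brain replicate 2 (-0.73, 0.051) or wild-type brain replicate 2 (-0.50, 0.12), and with no filter (0.055), only the arrays compared (0.12) or array weights by group (0.28). The scrib call was lost without scrib brain replicate 2 (-0.42, 0.14) or wild-type brain replicate 2 (-0.40, 0.21). It was also lost without any 1 of the 6 mutant disc arrays (adjusted p of 0.054 to 0.057), lgl brain replicate 2 (0.055) or lgl brain replicate 3 (0.052), all at an unchanged log2 of -0.58. With no filter its adjusted p was 0.079, with only the arrays compared 0.18 and with array weights 0.30. In lgl discs against brains, the dimmer probe set lost its call without lgl disc replicate 2 (0.56, 0.055), lgl disc replicate 3 (0.55, 0.065) or lgl brain replicate 1 (0.46, 0.095).

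The phosphatase Mkp3, on arm 3L, fell in mutant brains on both of its probe sets. The brighter over all arrays, 1637641_at, read 6.72, 6.58 and 6.73 in lgl brains, 7.14, 6.53 and 6.82 in scrib brains, and 7.75 and 7.78 in wild-type brains. The other, 1641361_a_at, read 6.39, 6.01 and 5.88 in lgl brains, 6.68, 6.54 and 6.52 in scrib brains, and 7.34 and 7.48 in wild-type brains. No mutant brain array reached a wild-type one on either. In lgl brains the falls were 2.13-fold (log2 -1.09 ± 0.23 SE, adjusted p = 0.0050) and 2.49-fold (-1.32 ± 0.18 SE, 3.9e-04). In scrib brains they were 1.92-fold (-0.94 ± 0.23 SE, 0.0072) and 1.77-fold (-0.83 ± 0.18 SE, 0.0039). No left-out array ended any of these 4 calls. Array weights by group ended all 4 (adjusted p = 0.20 and 0.069 in lgl, 0.22 and 0.18 in scrib), and the fit on only the arrays compared ended 1637641_at in scrib (0.069).

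No Mkp3 change passed in discs. Mkp3 1641361_a_at read 7.54, 7.51 and 7.79 in lgl discs, 7.75, 7.94 and 7.53 in scrib discs, and 7.53 and 7.81 in wild-type discs. These ranges overlapped, with changes of -0.06 in lgl (95% interval -0.45 to 0.33) and 0.07 in scrib (-0.32 to 0.46). On 1637641_at the changes were -0.47 in lgl (adjusted p = 0.18) and -0.26 in scrib (0.48). On 1641361_a_at discs stood above brains in lgl (2.87-fold, log2 1.52 ± 0.16 SE, adjusted p = 7.3e-06) and in scrib (2.23-fold, 1.16 ± 0.16 SE, 5.8e-05), in every alternative run. On 1637641_at the same differences were 0.42 (adjusted p = 0.11) and 0.49 (0.067) and did not pass, so the probe sets give different calls. The mean of both probe sets passed in lgl (0.97, 2.9e-04) and in scrib (0.82, 9.6e-04). The 1637641_at differences passed with quantile normalization added (0.60, 0.029 in lgl and 0.67, 0.015 in scrib), and in lgl with array weights by group (0.040). They passed without lgl disc replicate 2 in lgl (0.61, 0.037), and in scrib without scrib brain replicate 1 (0.65, 0.033) or either wild-type disc array (0.49, 0.044 each). In wild type the difference was 0.26 on 1641361_a_at (adjusted p = 0.32) and -0.19 on 1637641_at (0.59).

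**Figure D2:**
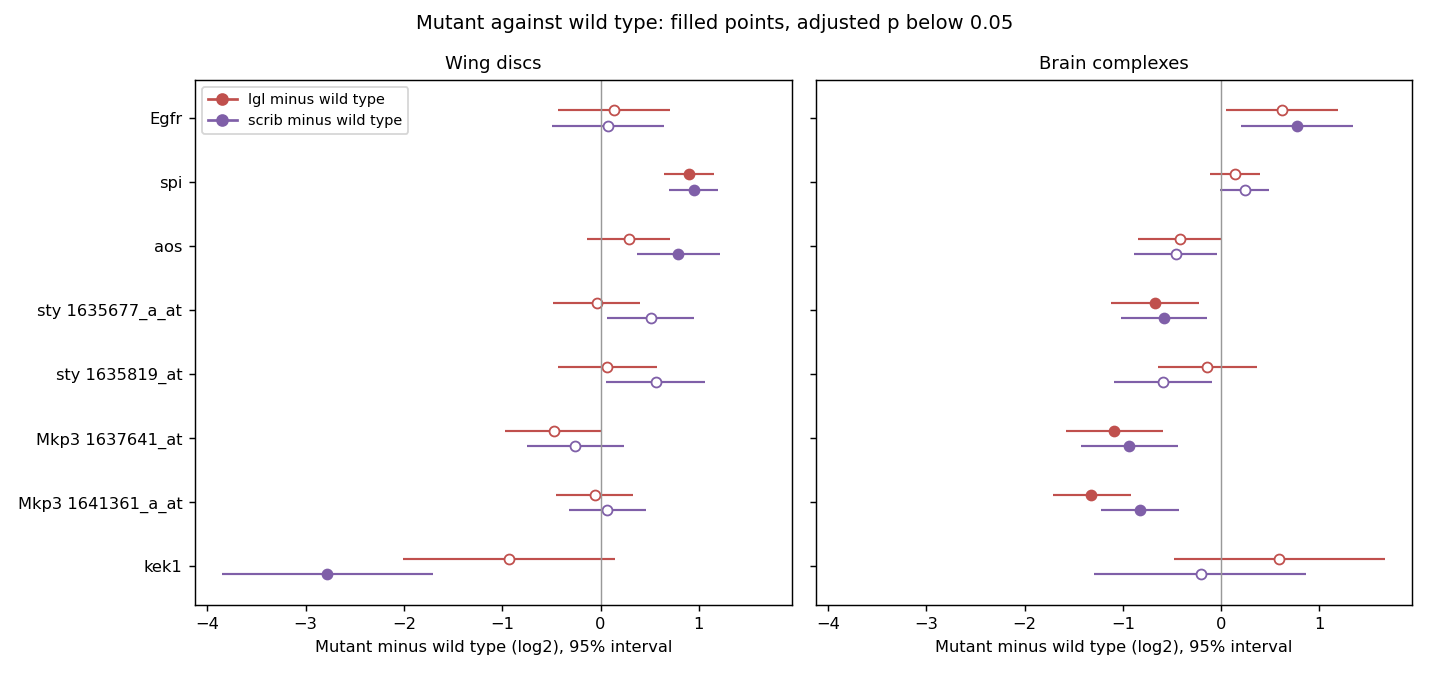
Mutant minus wild-type log2 difference (horizontal axis) with its 95% interval for each member probe set (vertical axis), in discs (left) and brain complexes (right). Filled points passed an adjusted p of 0.05. In discs spi is shifted by 0.90 and 0.95 and kek1 by -2.78 in scrib, and in brains both Mkp3 probe sets lie at -0.83 or lower.

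The receptor-binding inhibitor kek1 had the largest mutant change of the members, in scrib discs. Kek1, on arm 2L, read 5.19, 5.25 and 6.48 in lgl discs, 4.18, 4.11 and 3.09 in scrib discs, and 6.01 and 7.13 in wild-type discs. Every scrib disc array lay below every lgl and wild-type disc array, while lgl and wild type overlapped. It fell at least 5.55-fold in scrib discs (log2 -2.78 ± 0.50 SE, adjusted p = 0.0017), a call that held in all 26 alternatives (adjusted p of 8.5e-04 to 0.047). In lgl discs the value was -0.93 ± 0.50 SE (adjusted p = 0.23). Kek1 is the dimmest and most variable of the 8 probe sets, with a within-group SD of 0.60, and 14 of 16 arrays were at or above 4. In brains it read 5.02, 5.09 and 5.17 in lgl, 4.49, 4.25 and 4.13 in scrib, and 3.78 and 5.22 in wild type. The wild-type pair spans all mutant brain values, and neither change passed (lgl 0.59, adjusted p = 0.40; scrib -0.21, adjusted p = 0.78). In wild type, discs exceeded brains at least 3.89-fold for kek1 (log2 2.07 ± 0.54 SE, adjusted p = 0.0076), and the difference did not pass in lgl (0.55, adjusted p = 0.35) or scrib (-0.49, 0.40). The wild-type tissue call was lost without wild-type disc replicate 2 (1.51, 0.080) or wild-type brain replicate 1 (1.35, 0.090), with only the arrays compared (0.15) and with array weights (0.24).

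Lgl and scrib tissues, which were of the same age, could be set against each other directly. Any difference in genetic background between lgl and scrib larvae cannot be told apart from the mutations here. In discs 2 of 8 probe sets were called, against 20.5% of all tested, and in brains 0 of 8, against 11.5%. Kek1 was at least 2.91-fold higher in lgl discs than scrib discs (log2 1.85 ± 0.44 SE, adjusted p = 0.011). Sty 1635677_a_at was 1.47-fold lower in lgl discs (-0.55 ± 0.18 SE, 0.049), and the other sty probe set gave -0.49 (0.11). With only the arrays compared and with array weights by group, the first call held. In these settings the other probe set passed too (0.036 and 0.015). Aos gave -0.50 in the same comparison (adjusted p = 0.060), with all 3 lgl arrays below all 3 scrib arrays. It passed without scrib disc replicate 1 (-0.64, 0.037) or scrib brain replicate 2 (-0.50, 0.046), and with array weights by group (0.016). For spi and Egfr the differences were -0.05 (95% interval -0.28 to 0.17) and 0.06 (-0.45 to 0.57). In brains limma called none, with 2 probe sets at an unadjusted p below 0.05, sty 1635819_at (0.45, adjusted p = 0.19) and Mkp3 1641361_a_at (-0.49, 0.072). Kek1 gave 0.81 in brains (adjusted p = 0.28), with all 3 lgl arrays above all 3 scrib arrays. It passed with only the arrays compared (0.012). The Mkp3 difference passed without lgl brain replicate 1 (-0.64, 0.040), with quantile normalization added (-0.63, 0.032) and with array weights by group (0.044). The kek1 call was lost without lgl disc replicate 3 (1.43, 0.053) or scrib disc replicate 3 (1.49, 0.060) and with quantile normalization added (1.26, 0.061). The sty call, at 0.049, was lost without any 1 of the 6 disc arrays (0.077 to 0.13), without 5 of the 6 mutant brain arrays (0.056 to 0.064), with no filter (0.089) and with a replicate block (0.059), and leaving out scrib brain replicate 2 alone among mutant arrays kept it. Markers also separated these discs: the 13 neuronal markers summed to 9.55 to 10.24 in lgl discs and 7.62 to 7.65 in scrib discs, and the 8 hemocyte markers to 12.25 to 12.71 in lgl discs and 10.69 to 11.20 in scrib discs. Higher in lgl discs than in scrib discs were 4 of 6 neuroblast (median log2 3.33), 6 of 8 hemocyte (2.64), 5 of 8 glial (2.09) and 6 of 12 neuronal markers (0.96). The part of this in the kek1 and sty differences was not tested.

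Whether a mutant effect differed between tissues was tested as a difference of differences. For scrib, 6 of 8 probe sets were called, against 11.3% of all tested: spi (0.71 ± 0.16 SE, adjusted p = 0.016), aos (1.26 ± 0.28 SE, 0.012), both sty probe sets (1.09 ± 0.29 SE, 0.029, and 1.15 ± 0.32 SE, 0.040), Mkp3 1641361_a_at (0.90 ± 0.26 SE, 0.041) and kek1 (-2.56 ± 0.70 SE, 0.035). The first 5 were higher in discs relative to brains and kek1 was lower. For lgl, 2 of 8 were called, against 13.5%: spi (0.76 ± 0.16 SE, adjusted p = 0.0091) and Mkp3 1641361_a_at (1.26 ± 0.26 SE, 0.0067). Egfr did not pass in either mutant (lgl -0.48, adjusted p = 0.45; scrib -0.69, adjusted p = 0.26). Without wild-type brain replicate 2, Egfr passed in scrib (-1.08, 0.046) and kek1 in lgl (-2.24, 0.036). The scrib count varied between 2 and 5 when 1 array was left out, and was 2 with no filter and 0 both with only the arrays compared and with array weights by group.

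**Figure D3:**
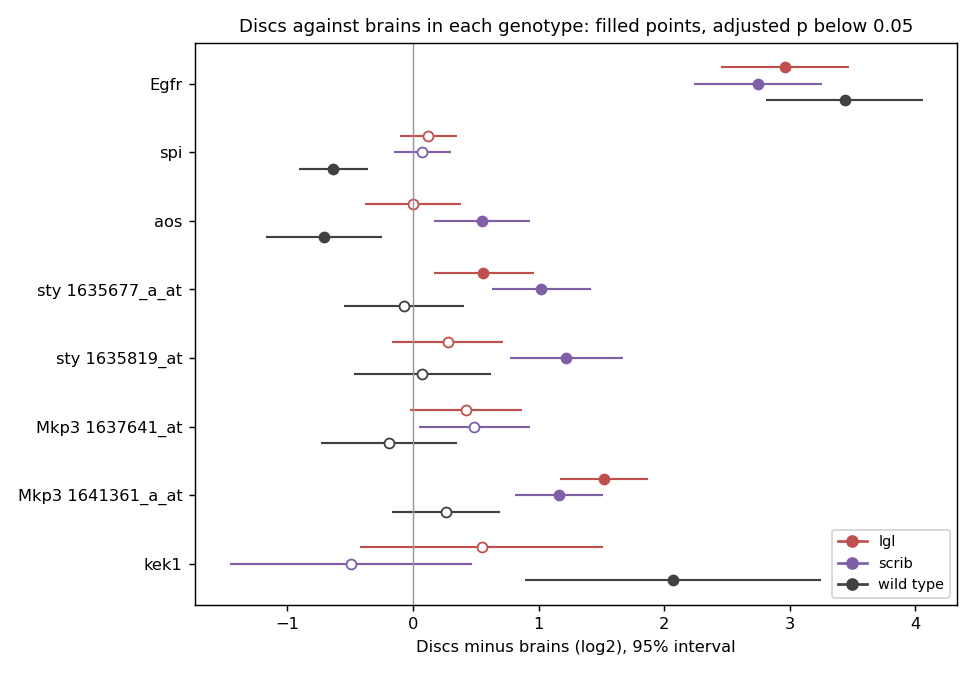
Discs minus brains log2 difference (horizontal axis) with its 95% interval for each member probe set (vertical axis) in lgl, scrib and wild type. Filled points passed an adjusted p of 0.05. Egfr lies between 2.75 and 3.44 in all 3 genotypes, while spi, aos and kek1 pass in wild type with differences of -0.64, -0.71 and 2.07.

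Markers of other tissues and RNA quality moved with several of these groups. The summed signal of the 5 fat body markers with a probe set was 10.04 to 10.77 on the log2 scale in lgl discs and 9.57 to 9.90 in scrib discs, against 12.74 to 15.66 in wild-type discs, with none of the 5 below 4 on every array of any of these groups. The 5 muscle markers summed to 7.58 to 7.78 in lgl and 7.92 to 8.45 in scrib discs, against 8.56 to 10.23 in wild-type discs, with Mlc2 below 4 on every disc array. The 6 salivary gland markers summed to 5.03 to 5.44 in lgl and 5.17 to 8.37 in scrib discs, against 9.65 to 13.26 in wild-type discs. Of these, Sgs3, Sgs4, Sgs5, Sgs8 and fkh were below 4 on every mutant disc array, and fkh on every wild-type disc array too. Other markers were higher in lgl discs than in wild-type discs: 4 of 6 neuroblast (median log2 3.05), 4 of 8 glial (1.87), 4 of 12 neuronal (0.45) and 3 of 8 hemocyte markers (1.44) rose and none of these lists had a member that fell. In scrib discs 1 neuroblast and 1 glial marker rose, while 1 neuronal, 1 glial and 1 hemocyte marker fell. Of 7 tested eye markers, 3 rose in lgl discs (median log2 0.95) and 1 fell in scrib discs (-0.28). In brains the 6 neuroblast markers summed to 14.29 to 14.36 in lgl and 13.47 to 13.99 in scrib, against 12.09 to 12.45 in wild type, and all 6 had group means of 4 or more. The 13 neuronal markers summed to 12.37 to 12.80 in lgl and 11.90 to 12.27 in scrib brains, against 13.56 to 13.62 in wild type. Among them para was below 4 on every brain array, VGlut on every mutant brain array and brp on every scrib brain array. The 8 glial markers with a probe set summed to 12.91 to 13.07 in lgl and 13.12 to 13.29 in scrib brains, against 13.51 to 14.31 in wild type, and all 8 had group means of 4 or more. Tracheal markers rose in mutant brains, 4 of 5 tested in lgl (median log2 2.44) and 2 of 5 in scrib (1.46), and btl stayed below 4 on every brain array. Ring gland markers were lower, 2 of 3 tested in lgl (median log2 -3.81) and 2 of 3 in scrib brains (-3.46). Of the listed ring gland markers, dib, nvd and tor were below 4 on every mutant brain array, and dib and tor on every wild-type brain array too. RNA breakdown was read from eIF-4a, as the log2 signal of its 3′ control probe set less that of its 5′ one. This was 1.65 and 1.71 in scrib disc replicates 1 and 2 and higher in replicate 3, all 3 below the 2.29 to 2.35 of wild-type discs. In scrib brains it was 1.76 to 1.85, against 2.32 to 2.70 in wild-type brains. The same measure of GAPDH, actin and 18S rRNA overlapped between scrib and wild-type brains. In scrib discs it was lower than in wild-type discs on every array for GAPDH (0.31 to 0.37, against 0.49 to 0.52) and for 18S rRNA (1.35 to 2.36, against 2.37 to 3.25), and it overlapped for actin. Every lgl disc array was below wild-type discs for eIF-4a (2.14 to 2.26) and above them for GAPDH (0.58 to 0.67), with overlap for actin and 18S rRNA. Every lgl brain array was below wild-type brains for 18S rRNA (1.57 to 2.81, against 2.97 to 3.14) and actin (0.68 to 0.90, against 0.98 to 0.99). The eIF-4a and GAPDH measures overlapped between lgl and wild-type brains. The part of these differences in the member results was not tested.

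The rest of the pathway was read from 31 other tested genes in 7 lists, each by its brightest probe set. In lgl discs 4 were called higher, among them Alk at signals below 4, and 5 fell (median log2 0.02), where 12.6% of the 7213 tested genes rose and 5.63% fell. In scrib discs 2 rose and 3 fell (median -0.25), against 12.9% and 9.95% of genes. In lgl brains 5 rose and 3 fell (median 0.35), against 14.2% and 11.3%. In scrib brains 3 rose and 5 fell (median -0.08), against 20.7% and 14.4%. The median over all tested genes was 0.02, 0.01, 0.04 and 0.09 in these comparisons. The lists leave out rho family proteases, Ras85D, Raf and rl, the fly MAP kinase, which have no probe set under their symbols here. As for spi, the suffix of the Star, drk, Sur-8 and htl probe sets marks probes that can match transcripts of other genes too.

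Ligand processing was represented by Krn, another spi-like ligand, and Star, written S. Star read 8.05 to 8.36 in lgl discs and 7.87 to 8.07 in scrib discs, against 8.77 to 9.14 in wild-type discs. It fell 1.71-fold in lgl (log2 -0.77 ± 0.21 SE, adjusted p = 0.021) and 1.93-fold in scrib discs (-0.95 ± 0.21 SE, 0.0061). Krn was not called in any mutant. The Star call in lgl discs was lost without lgl disc replicate 1 (-0.75, 0.062), lgl disc replicate 2 (-0.71, 0.073) or wild-type disc replicate 2 (-0.59, 0.13), and with only the arrays compared (0.074) or array weights (0.096). In scrib discs it was lost without wild-type disc replicate 2 (-0.77, 0.056).

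Of the 9 tested genes of the Ras and MAP kinase cascade, 1 rose in lgl discs, 2 rose in scrib discs, 3 rose and 1 fell in lgl brains, and 1 rose and 1 fell in scrib brains. The adaptor dos rose 1.88-fold in scrib discs (0.91 ± 0.18 SE, adjusted p = 0.0031), 1.65-fold in lgl brains (0.72 ± 0.18 SE, 0.012) and 2.08-fold in scrib brains (1.05 ± 0.18 SE, 7.8e-04). The adaptor Shc rose 1.54-fold in lgl discs (0.62 ± 0.16 SE, 0.019) and 1.76-fold in scrib discs (0.82 ± 0.16 SE, 0.0035). The Grb2 adaptor drk fell in brains, where it read 10.82 to 11.05 in lgl and 10.49 to 10.92 in scrib, against 11.77 to 11.83 in wild type. Its fall was 1.87-fold in lgl (-0.90 ± 0.15 SE, 0.0011) and 2.20-fold in scrib brains (-1.14 ± 0.15 SE, 1.3e-04), and array weights by group ended the lgl call (0.092). Sur-8, a scaffold that aids Raf activation, rose 1.58-fold in lgl brains (0.66 ± 0.21 SE, 0.038), a call lost in 14 of 26 alternatives, down to 0.50 (adjusted p = 0.24) without wild-type brain replicate 1. The lgl call of Shc was lost without lgl disc replicate 2 (0.56, 0.070) or wild-type disc replicate 1 (0.54, 0.11), with only the arrays compared (0.057) and with array weights (0.10). The lgl brain call of dos was lost without wild-type brain replicate 1 (0.37, 0.12), with only the arrays compared (0.15) and with array weights (0.12), and its scrib brain call with only the arrays compared (0.067).

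**Figure D4:**
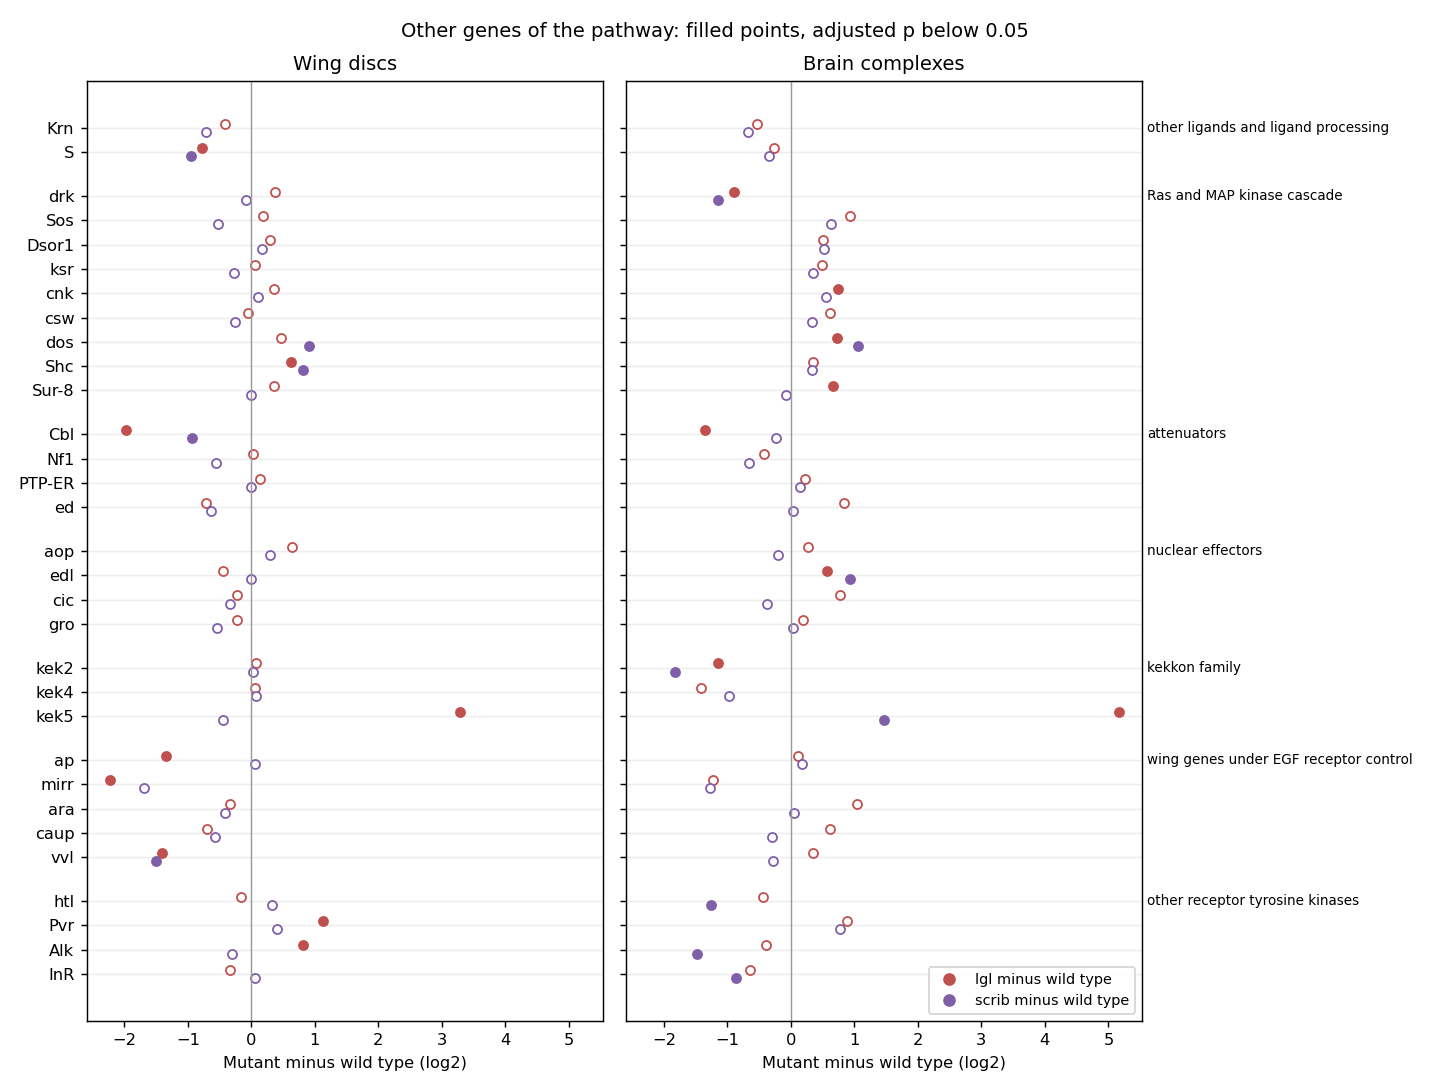
Mutant minus wild-type log2 difference (horizontal axis) of the 31 other tested pathway genes (vertical axis, grouped by list) in discs (left) and brain complexes (right). Filled points passed an adjusted p of 0.05. Kek5 stands at 3.28 in lgl discs and 5.16 in lgl brains, and Cbl at -1.97 in lgl discs.

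Among the 4 tested attenuators, Cbl, a ubiquitin ligase that sends the receptor to degradation, was called. Its brightest probe set read 8.37, 7.86 and 7.97 in lgl discs, 9.09, 9.11 and 9.12 in scrib discs, and 10.12 and 9.95 in wild-type discs. It fell 3.91-fold in lgl discs (log2 -1.97 ± 0.26 SE, adjusted p = 1.8e-04), 1.90-fold in scrib discs (-0.93 ± 0.26 SE, 0.020) and 2.55-fold in lgl brains (-1.35 ± 0.26 SE, 0.0027). A second Cbl probe set gave 1.09 in lgl discs (adjusted p = 0.099), -1.48 in scrib discs (0.025) and -1.05 in lgl brains (0.089), so the probe sets are opposed in lgl discs, and the mean of both gave -0.44 there (0.27). The scrib disc call of the brightest was lost without wild-type disc replicate 1 (-0.84, 0.095), wild-type disc replicate 2 (-1.01, 0.052) or scrib disc replicate 1 (-0.92, 0.050) and with array weights (0.16), which also ended the lgl brain call (0.16). Nf1, PTP-ER and ed were not called in any mutant against wild type.

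Of the 4 nuclear effectors, edl, a small protein that binds the repressor aop, rose in brains and no other was called. Edl rose 1.49-fold in lgl brains (0.57 ± 0.16 SE, adjusted p = 0.020) and 1.91-fold in scrib brains (0.93 ± 0.16 SE, 7.9e-04). The lgl call was lost without lgl brain replicate 2 (0.54, 0.064) or wild-type brain replicate 2 (0.34, 0.11), with only the arrays compared (0.15) and with array weights (0.26), and the scrib call with only the arrays compared (0.059).

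Of the 3 tested kekkon relatives of kek1, kek5 and kek2 were called. Kek5, which is known to modulate BMP signalling, read 9.50, 9.52 and 9.63 in lgl discs, 5.93, 5.79 and 5.76 in scrib discs, and 5.82 and 6.71 in wild-type discs. In brains it read 9.75, 9.61 and 9.53 in lgl, 5.81, 5.64 and 6.34 in scrib, and 3.94 and 5.00 in wild type. All 6 lgl arrays thus lay within 9.50 to 9.75 in both tissues, above every other array. The lgl mutation and the genetic background of the lgl larvae cannot be told apart in this difference. Kek5 rose 9.73-fold in lgl discs (log2 3.28 ± 0.31 SE, adjusted p = 1.3e-05), at least 35.0-fold in lgl brains (5.16 ± 0.31 SE, 5.2e-07) and at least 2.69-fold in scrib brains (1.46 ± 0.31 SE, 0.0032), and it was not called in scrib discs (-0.44, adjusted p = 0.35). Lgl exceeded scrib 13.2-fold in discs (adjusted p = 1.6e-06) and 13.0-fold in brains (3.7e-06). Another kek5 probe set stayed below the filter, and the suffix of the bright one marks a design whose probes can match more than 1 gene. The scrib brain call was lost with only the arrays compared (0.085). Kek2 fell 2.22-fold in lgl brains (-1.15 ± 0.25 SE, 0.0063) and 3.52-fold in scrib brains (-1.82 ± 0.25 SE, 1.9e-04), and in discs of every genotype it stayed at 2.61 or lower. The kek2 call in lgl brains was lost with only the arrays compared (0.14) and with array weights by group (0.13).

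Of the 5 tested wing genes that the pathway is known to control, 3 fell in lgl discs and 1 in scrib discs, and none was called in brains. General wing disc markers were lower beside them: of 18 tested, 7 fell and 1 rose in lgl discs (median log2 -0.90). In scrib discs 6 fell and 1 rose (-0.55). The gene ap is in both lists, so its fall in lgl discs counts in both. The part of these markers in the wing gene values was not tested. The dorsal selector ap read 9.43 to 10.47 in lgl discs, against 11.25 to 11.63 in wild-type discs, and fell 2.53-fold (-1.34 ± 0.28 SE, adjusted p = 0.0053). In scrib discs ap read 11.23 to 11.67, with a change of 0.06 (adjusted p = 0.94). The Iroquois gene mirr fell 4.66-fold in lgl discs (-2.22 ± 0.65 SE, 0.032), and it did not pass in scrib discs (-1.69, 0.082). A second mirr probe set did not pass in lgl (-1.26, adjusted p = 0.095) or scrib discs (-0.78, 0.29). The POU factor vvl fell 2.66-fold in lgl (-1.41 ± 0.34 SE, 0.013) and 2.83-fold in scrib discs (-1.50 ± 0.34 SE, 0.0077). A second, dimmer vvl probe set did not pass in lgl (-2.10, adjusted p = 0.097) or scrib discs (-2.36, 0.055), while a second ap probe set fell in lgl discs as well (-1.36, 0.013). Without wild-type disc replicate 2 all of the mirr and vvl calls were lost (mirr -1.45, 0.21; vvl -0.88, 0.12 in lgl and -0.97, 0.092 in scrib). The mirr call was also lost without lgl disc replicate 2 (-2.14, 0.083) or 3 (-1.92, 0.10) and with no filter (0.10). With only the arrays compared the adjusted p was 0.11 for ap, 0.11 for mirr, and 0.090 and 0.11 for vvl in lgl and scrib. With array weights by group it was 0.13 for ap, 0.067 for mirr, and 0.084 and 0.067 for vvl.

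Of 4 other tested receptor tyrosine kinases that feed the same cascade, 1 rose in lgl discs at signals above 4 and 3 fell in scrib brains. The PDGF and VEGF receptor homologue Pvr rose 2.19-fold in lgl discs (1.13 ± 0.33 SE, adjusted p = 0.033). Without wild-type disc replicate 1 its change was 0.41 (0.39), and the call was also lost without lgl disc replicate 1 (1.07, 0.087) or 3 (1.06, 0.087), with no filter (0.089), with only the arrays compared (0.21) and with array weights (0.096). Alk also passed in lgl discs (0.81, adjusted p = 0.014), but every disc array read below 4 and it entered the test through its brain signal, so it is not described as a rise. In scrib brains 3 fell: Alk 2.77-fold (-1.47 ± 0.20 SE, 1.9e-04), the FGF receptor htl 2.38-fold (-1.25 ± 0.26 SE, 0.0029) and the insulin receptor InR 1.81-fold (-0.86 ± 0.25 SE, 0.018). The Alk disc call was lost without lgl disc replicate 2 (0.69, 0.058) or wild-type disc replicate 2 (0.49, 0.13), with only the arrays compared (0.13) and with array weights (0.096). The InR call was lost without scrib brain replicate 2 (-0.64, 0.061) or wild-type brain replicate 1 (-0.57, 0.16), with only the arrays compared (0.15) and with array weights (0.31), and the htl call with only the arrays compared (0.087) or array weights (0.14).

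The genes whose signal followed each member most closely over the 16 arrays are given as a description. Tissue, age and genotype differ among these arrays and were not adjusted for. Egfr was followed by qsm (Pearson r = 0.992) and egl (0.991), an order set mainly by the gap between discs and brains. Spi was followed by AcCoAS (0.921) and FASN1 (0.899), and kek1 by firl (0.891) and br (0.887). The brighter sty probe set was followed by IP3K1 (0.867) and RhoL (0.833), and the brighter Mkp3 probe set by Stlk (0.843) and Pabp2 (0.828). Aos had the loosest neighbours, Rdh1 (0.761) and Pmvk (0.711). No member was among the 2 closest genes of another.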

How the data were processed

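Each sample's RNA was turned into biotinylated cRNA and read on 1 Affymetrix array, per the labels' protocols. The authors deposited log2 signal per probe set, and GCRMA, a method of background correction, normalization and probe set summary, is named in the submitters' processing notes. Its version is not given in the sources used here. The values share a floor of 2.21. Of 18952 probe sets, 183 controls were left out, and 13647 carried 1 gene symbol, 402 several and 4720 none. Symbols come from the platform annotation, updated by gene ID to RefSeq on assembly Release 6 plus ISO1 MT.

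Groups came from the sample titles. A model with a mean for each of 6 groups and 10 residual degrees of freedom was fitted with limma 3.58.1 in R 4.3.3. It covered the 8819 probe sets at or above 4 on at least 2 arrays, for 11 comparisons. The fit was also run on simulated data with the same spread in every group. Since wild-type arrays varied more than mutant ones, that run does not give the error rate of comparisons with wild type. Adjusted p-values are Benjamini-Hochberg over all tested probe sets within a comparison. Intervals are 95%, and the number of arrays limits precision. Other genes are given by their brightest probe set over all arrays, and members by every probe set. Named genes are all members, up to 3 called genes with the smallest adjusted p per list and mutant comparison, and the 2 most correlated genes per member. The members and lists were chosen with earlier results of these data known. Alternatives changed the filter, variance prior, normalization, replicate block, arrays in the fit, array weights by group, probe set per gene, fold threshold, or left out arrays. No sequences are printed.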

Additional observations from a re-analysis of the deposited data

Results flagged for a closer look

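The effect of a mutation differed between discs and brains for 8 combinations of probe set and mutant, by limma's test of the difference itself. Values are the log2 effect in discs minus that in brains. For lgl they were 0.76 for spi (adjusted p = 0.0091) and 1.26 for Mkp3 1641361_a_at (0.0067). The spi effect was 0.90 in discs and 0.14 in brains, and the Mkp3 effect -0.06 in discs and -1.32 in brains. For scrib they were 0.71 for spi (0.016), 1.26 for aos (0.012), 1.09 for sty 1635677_a_at (0.029), 1.15 for sty 1635819_at (0.040), 0.90 for Mkp3 1641361_a_at (0.041) and -2.56 for kek1 (0.035). In scrib the aos effect was 0.79 in discs and -0.46 in brains, and the kek1 effect -2.78 in discs and -0.21 in brains. With array weights by group all 8 lost their call (adjusted p of 0.17 to 0.48), with unchanged log2 values. The fit on only the arrays compared ended 7 of the 8, all but Mkp3 in lgl. No single array ended the spi or aos calls or that of Mkp3 in lgl. The scrib call of sty 1635677_a_at was lost without scrib disc replicate 1 (0.062) or 3 (0.054), wild-type disc replicate 1 (log2 0.80, adjusted p = 0.088), scrib brain replicate 2 (0.052) or wild-type brain replicate 2 (0.051). That of sty 1635819_at was lost in 14 of 26 alternatives: without any lgl array, scrib disc replicate 2 or 3, wild-type disc replicate 1, scrib brain replicate 2 or wild-type brain replicate 2 (adjusted p of 0.053 to 0.098, lowest log2 0.80), and with no filter (0.080). That of Mkp3 was lost in 19 of 25, with log2 values of 0.75 to 1.04, and held when lgl brain replicate 1 or 3, scrib disc replicate 3 or wild-type disc replicate 2 was the array left out. That of kek1 was lost without scrib disc replicate 3 (-2.21, 0.070), wild-type disc replicate 2 (0.12), wild-type brain replicate 1 (-1.84, 0.12) or any of the scrib brain arrays (0.053 to 0.068), with no filter (0.098), with quantile normalization added (-2.20, 0.059) and without both replicate 1 wild-type arrays (-2.40, 0.056).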

How the results depend on the processing

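Counts are of the 8 member probe sets called. Beyond the runs with 1 array left out, not every count that changed is listed. With 1 array left out the count stayed at 1 in lgl discs against wild type, and ranged over 2 to 4 in scrib discs, 2 to 3 in lgl brains, 2 to 4 in scrib brains, 0 to 3 for lgl against scrib discs, 0 to 1 for lgl against scrib brains, 3 to 4 for wild-type, 2 to 3 for lgl and 4 to 6 for scrib discs against brains, 2 to 3 for the lgl effect between tissues and 2 to 5 for the scrib effect. Without a wild-type array, the 1 left is assumed to vary like the other groups. Array weights by group and the fit on only the arrays compared each ended the aos call in scrib discs. With array weights by group the count was 0 in lgl brains, 0 in scrib brains, 4 for lgl against scrib discs, 1 for lgl against scrib brains, 1 for wild-type discs against brains, 0 for the lgl effect and 0 for the scrib effect between tissues. With only the arrays compared it was 1 in scrib brains, 1 for lgl against scrib brains, 1 for wild-type discs against brains, 1 for the lgl effect and 0 for the scrib effect. With no filter it was 1 for lgl against scrib discs and 2 for the scrib effect. Quantile normalization added the calls of aos and sty 1635819_at in scrib brains. It also added Mkp3 1637641_at between discs and brains in both mutants, and ended kek1 for the scrib effect between tissues. With it the count was 1 for lgl against scrib discs and 1 for lgl against scrib brains. A fold of at least 2 ended sty 1635677_a_at in lgl brains, and spi and Mkp3 1641361_a_at for the scrib effect between tissues. With it the count was 0 in lgl discs, 1 in scrib discs and 0 in scrib brains. The count was 1 for lgl against scrib discs, 2 for wild-type discs against brains and 1 for the lgl effect. Without both replicate 1 wild-type arrays it was 4 for lgl against scrib discs and 1 for lgl against scrib brains. With the mean of all probe sets of a gene it was 2 of 6 genes for lgl discs against brains and 2 of 6 for the lgl effect. The replicate block gave 1 for lgl against scrib discs. Numbers do not pair the samples by the labels. Among the 2 or 3 arrays of the other group, that of the same number was the best match in 18 of 36 checks. Deviations of same-numbered arrays correlated at 0.43 between wild-type discs and brains. Deviations in a group of 2 arrays mirror each other, so both wild-type pairs give this same value. The other pairs gave -0.17 to 0.24. The block also brought Egfr in lgl brains past the threshold (0.63, adjusted p = 0.034) and ended the call of Mkp3 1641361_a_at for the scrib effect between tissues (0.056). No called difference of a member or named gene changed sign in any alternative. Where calls were lost beyond these constructions, the cause was not tested. Signals near the floor limit kek1, kek2 and Alk in discs.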
